A study of Homo sapiens with 2 samples.

Results

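The 10 epithelial keratin, claudin and cadherin genes described here are EPCAM, CDH1, KRT8, KRT18, KRT19, CLDN4, RAB25, GATA3, WFDC2 and MAL2, out of 36601 genes in the count matrix, of which 28701 had a count in the cells analysed. They were chosen by name, and the choice was made with earlier levels of these genes in these cells known. Their levels by cell class are therefore a description, and no test stands behind them. The cells came from 1 pool of H9 cells, a human embryonic stem cell line, differentiated into cardiomyocytes and carrying the fluorescent calcium reporter gCaMP6f. After a freeze at day 15 and a thaw, cells were stained with antibody-borne oligonucleotides (hashtags) and pooled for droplet RNA sequencing. The pool was read as 2 libraries, one of gene expression and one of hashtags, and every cell shares the reporter, the line and the thaw. No label says which sample a hashtag marked, so there was no second group of samples and no replicate. The intervals given are exact 95% intervals of the counts and say nothing of variation between cultures.

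Simple epithelia line tubes and surfaces as a single sheet of cells. E-cadherin (CDH1) and EPCAM join neighbouring cells, claudins such as CLDN4 seal the space between them, and keratins 8, 18 and 19 form the filaments beneath. RAB25 and MAL2 carry membrane to the apical side, GATA3 is a transcription factor of several epithelia and of amnion and trophoblast, and WFDC2 is a secreted protein of the protease inhibitor family. Several of these genes are also used outside such sheets: the epicardium, the mesothelial covering of the heart, makes keratins 8 and 18, and EPCAM marks pluripotent cells and early endoderm.

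The 19115 cells analysed had a median of 11701 unique molecular identifiers (UMIs) each. They were clustered without the 10 genes and without the junction, keratin and regulator genes discussed below, so a cluster's level of a member was not used to build that cluster. By their markers, 302 cells (1.58%) were endoderm-like, 241 (1.26%) epicardial-like, 1386 (7.25%) stromal-like, 61 (0.319%) endothelial-like and 14640 (76.6%) cardiomyocyte-like. Another 873 cells (4.57%, 4.28 to 4.87) formed a cluster led by WFDC2, MIR205HG, CLDN4, CLDN7, ANXA1, GABRP, RAB25, TFAP2A, CDH1 and LUM. Its 16 epithelial markers outside the members summed to 743 CPM (a class's UMIs of a gene, scaled to a common total and not per length, so levels are compared between classes and not between genes), with 14 of 16 at 10 CPM or more and none at 0. In endoderm-like, epicardial-like and cardiomyocyte-like cells the sums were 277, 188 and 65.0 CPM. The leading genes also held GABRP and TFAP2A of the amnion and surface ectoderm list, which summed to 366 CPM over 8 genes with KRT5 at 0, so the cluster was given no cell type name and is called the WFDC2/CLDN4 cluster, after 2 of the members. A further 1612 cells had a median of 1916 UMIs and 13.3% mitochondrial UMIs and were left out of comparisons.

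All 10 genes were higher in the WFDC2/CLDN4 cluster than in cardiomyocyte-like cells, by 3.20-fold for KRT19 to 202-fold for RAB25. Higher here means a ratio of summed levels of at least 1.5, with at least 10 CPM and 10 UMIs on the higher side, a rule that 28.3% of the 9466 genes measured in this comparison also met, while 18.3% were lower. The median log2 ratio of the 10 genes was 6.09, against 0.17 over all measured genes. CDH1, CLDN4, RAB25, GATA3, WFDC2 and MAL2 were below 10 CPM in cardiomyocyte-like cells. In each comparison with those cells they were thus measured only where the other class reached 10 CPM, and could not be called lower. Their calls were nearly fixed by the minimum level. The counts of members and the median are therefore not read against the values over all measured genes. Endoderm-like cells were higher than cardiomyocyte-like cells for EPCAM, CDH1, RAB25, WFDC2 and MAL2, which are 5 of the 8 members measured there (26.6% of all measured genes). They were lower for 0 of 8 (20.2%). Of these 5 members only EPCAM reached 10 CPM in cardiomyocyte-like cells, so the calls of the others followed from the minimum level. KRT19 lay just under the limit, at a ratio of 1.49 (1.42 to 1.56). Epicardial-like cells were higher for KRT8, KRT18, KRT19 and GATA3 and lower for EPCAM, among 5 members measured, where 22.4% of all measured genes were higher and 21.1% lower. Stromal-like cells were higher for KRT8, KRT18, GATA3 and WFDC2 among 6 measured (25.3% of all measured genes), with 0 lower (11.7%). The minimum level likewise fixed the calls of GATA3 in epicardial-like and stromal-like cells and of WFDC2 in stromal-like cells. Endothelial-like cells were higher for 0 of 4 (24.9%) and lower for EPCAM and KRT19 (30.7%), on only 7 and 56 UMIs, and the interval of the EPCAM ratio (0.215 to 1.10) includes 1. Only 2 members were higher in stromal-like cells when the class totals were scaled by the trimmed mean of M values, or when the ratio had to reach 3.

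The other classes were also set against each other. Of the 10 members 8 were higher in the WFDC2/CLDN4 cluster than in endoderm-like cells (13.2% of all measured genes) and 0 lower (10%). Against epicardial-like cells 8 were higher (22%) and KRT8 and KRT18 lower (13.8%), and against stromal-like cells 10 were higher (11.6%) and 0 lower (16.7%). Endoderm-like cells were higher than epicardial-like cells for 5 members (23%), the same ones as against cardiomyocyte-like cells, and lower for KRT8, KRT18 and GATA3 (17.7%). Here too a member below 10 CPM in the lower class was measured only through the other class. This held for CLDN4 and GATA3 in endoderm-like cells and for CDH1, CLDN4, RAB25 and MAL2 in stromal-like cells. It also held for EPCAM, CDH1, CLDN4, RAB25, WFDC2 and MAL2 in epicardial-like cells. These counts are not read against the shares either.

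**Figure D1:**
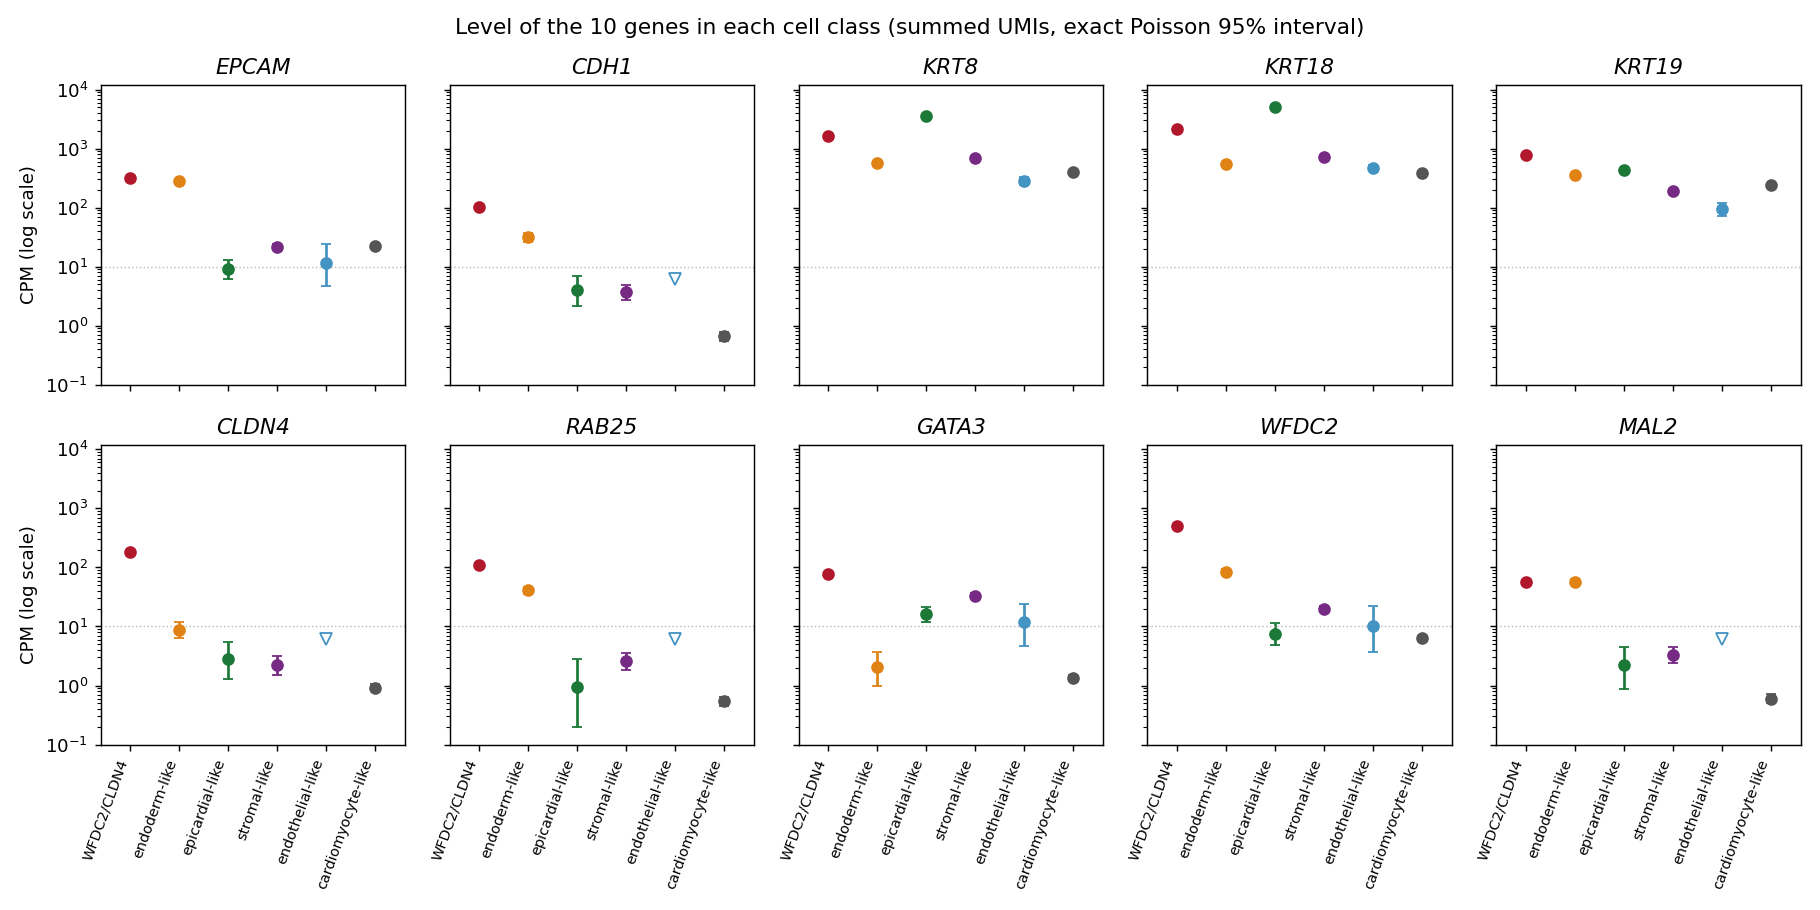
Level of each gene in 6 classes of cells, in CPM on a log axis, with exact Poisson 95% intervals. Open triangles are upper limits where no UMI was counted, and the dotted line marks 10 CPM. CDH1, RAB25 and MAL2 were high in the WFDC2/CLDN4 cluster and in endoderm-like cells, while KRT8 and KRT18 were highest in epicardial-like cells.

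CLDN4 and WFDC2 were counted as private to the WFDC2/CLDN4 cluster, meaning at least 5 times the level of every other class. Of all 11007 genes measured for this, 0.372% met the same rule. CLDN4, a claudin of the tight junction, had 184 CPM (176 to 192) in the WFDC2/CLDN4 cluster, 8.73 CPM in endoderm-like cells, 2.84 CPM in epicardial-like cells, 2.25 CPM in stromal-like cells, 0 UMIs in endothelial-like cells and 0.916 CPM in cardiomyocyte-like cells. It was 21.1-fold higher (15.6 to 29.2) than in endoderm-like cells, the next class. WFDC2 had 509 CPM (497 to 522) in the WFDC2/CLDN4 cluster, 84.4 CPM in endoderm-like cells, 7.56 CPM in epicardial-like cells, 19.9 CPM in stromal-like cells, 10.1 CPM in endothelial-like cells and 6.37 CPM in cardiomyocyte-like cells. It was 6.03-fold higher (5.46 to 6.68) than in endoderm-like cells, just above the threshold of 5. The nearest member below the threshold was CDH1, at 3.22-fold over endoderm-like cells. The number of private genes was 5 when the multiple was 2, and 1 when it was 10.

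RefSeq promoter windows, 250 bases before to 50 after a gene's start on GRCh38.p14, were at hand for 5 of the 10 genes. Those of CLDN4, WFDC2 and RAB25 are shown because CLDN4 and WFDC2 are the private members and RAB25 had the largest ratio to cardiomyocyte-like cells, and because they differ in one short motif. The E-box CAGGTG, searched on both strands, is the letter sequence bound by E-cadherin repressors such as ZEB1. RAB25 lies at chr1:156060910-156061209 on the plus strand, WFDC2 at chr20:45469503-45469802 on the plus strand and CLDN4 at chr7:73830746-73831045 on the plus strand. Capitals mark the E-box, here read as its reverse complement.
RAB25: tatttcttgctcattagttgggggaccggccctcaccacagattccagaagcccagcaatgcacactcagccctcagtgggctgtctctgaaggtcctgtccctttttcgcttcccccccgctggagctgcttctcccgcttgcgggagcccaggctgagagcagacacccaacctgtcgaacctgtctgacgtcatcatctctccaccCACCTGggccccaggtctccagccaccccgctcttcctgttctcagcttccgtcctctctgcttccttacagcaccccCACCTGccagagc
WFDC2: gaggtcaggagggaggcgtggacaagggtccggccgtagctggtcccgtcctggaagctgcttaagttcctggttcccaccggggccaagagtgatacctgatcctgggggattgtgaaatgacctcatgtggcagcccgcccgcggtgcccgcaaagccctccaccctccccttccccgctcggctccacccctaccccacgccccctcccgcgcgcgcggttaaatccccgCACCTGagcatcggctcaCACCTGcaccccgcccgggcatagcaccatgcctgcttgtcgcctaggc
CLDN4: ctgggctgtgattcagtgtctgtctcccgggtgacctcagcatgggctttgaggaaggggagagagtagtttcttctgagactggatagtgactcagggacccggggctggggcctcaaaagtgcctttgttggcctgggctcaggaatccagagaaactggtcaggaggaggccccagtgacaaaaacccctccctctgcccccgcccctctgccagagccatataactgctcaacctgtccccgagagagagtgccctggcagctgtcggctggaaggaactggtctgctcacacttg
The RAB25 and WFDC2 windows each hold 2 E-boxes and the CLDN4 window holds 0, where 20.6% of 35116 promoter windows hold at least 1 and 3.49% at least 2. None lies in the windows of KRT8 or GATA3, and the motifs AACCNGTT (1.73% of windows) and AGATAA (10.3%), also searched on both strands, are in no window of the 5 genes. A match is a description of letters, and a missing match says only that these letters are not in this window.

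EPCAM and MAL2 were shared with endoderm-like cells at nearly the same level. EPCAM, a cell adhesion protein, had 316 CPM (306 to 326) in the WFDC2/CLDN4 cluster, 284 CPM (269 to 299) in endoderm-like cells, 9.14 CPM in epicardial-like cells, 21.5 CPM in stromal-like cells, 11.8 CPM in endothelial-like cells and 22.0 CPM (21.4 to 22.6) in cardiomyocyte-like cells. MAL2, a membrane protein of apical transport, had 56.4 CPM (52.3 to 60.8) in the WFDC2/CLDN4 cluster, 57.7 CPM (51.1 to 64.8) in endoderm-like cells, 2.21 CPM in epicardial-like cells, 3.33 CPM in stromal-like cells, 0 UMIs in endothelial-like cells and 0.597 CPM in cardiomyocyte-like cells. The ratio of the WFDC2/CLDN4 cluster to endoderm-like cells was 1.11 (1.05 to 1.18) for EPCAM and 0.979 (0.852 to 1.13) for MAL2, so the intervals of the 2 classes overlap for MAL2 only.

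CDH1 and RAB25 were shared with endoderm-like cells at a lower level. CDH1 had 101 CPM (95.7 to 107) in the WFDC2/CLDN4 cluster, 31.5 CPM (26.7 to 36.8) in endoderm-like cells, 4.10 CPM in epicardial-like cells, 3.70 CPM in stromal-like cells, 0 UMIs in endothelial-like cells and 0.662 CPM in cardiomyocyte-like cells. RAB25, a small GTPase of recycling endosomes, had 108 CPM (103 to 114) in the WFDC2/CLDN4 cluster, 41.0 CPM (35.5 to 47.1) in endoderm-like cells, 0.945 CPM in epicardial-like cells, 2.61 CPM in stromal-like cells, 0 UMIs in endothelial-like cells and 0.537 CPM in cardiomyocyte-like cells. The WFDC2/CLDN4 cluster was 3.22-fold (2.72 to 3.83) and 2.64-fold (2.28 to 3.08) above endoderm-like cells. Endothelial-like cells were few, and the exact upper limit for a count of 0 there was 6.20 CPM.

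The keratins did not follow that order. KRT8, a type II keratin, had 1653 CPM (1630.5 to 1676) in the WFDC2/CLDN4 cluster, 575 CPM (554 to 596) in endoderm-like cells, 3506 CPM (3441 to 3572) in epicardial-like cells, 692 CPM in stromal-like cells, 286 CPM in endothelial-like cells and 399 CPM in cardiomyocyte-like cells. KRT18, its type I partner, had 2154 CPM (2128 to 2179.9) in the WFDC2/CLDN4 cluster, 551 CPM (530.4 to 572) in endoderm-like cells, 5137 CPM (5059 to 5217) in epicardial-like cells, 719 CPM in stromal-like cells, 472 CPM in endothelial-like cells and 394 CPM in cardiomyocyte-like cells. The WFDC2/CLDN4 cluster thus stood at 0.472 times (0.461 to 0.483) the epicardial-like level of KRT8 and 0.419 times (0.411 to 0.428) that of KRT18. Between endoderm-like and cardiomyocyte-like cells the ratio was 1.44 for KRT8 and 1.40 for KRT18, both within the 1.5-fold limit. KRT19, another type I keratin, had 779 CPM (763 to 794) in the WFDC2/CLDN4 cluster, 363 CPM (346 to 380) in endoderm-like cells, 438 CPM (415 to 462) in epicardial-like cells, 191 CPM in stromal-like cells, 94.1 CPM in endothelial-like cells and 244 CPM in cardiomyocyte-like cells. It stood at 46.6% of that highest level in endoderm-like cells, 56.2% in epicardial-like cells, 24.5% in stromal-like cells and 31.3% in cardiomyocyte-like cells.

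GATA3 joined the WFDC2/CLDN4 cluster to stromal-like and epicardial-like cells and not to endoderm-like cells. It had 78.7 CPM (73.8 to 83.8) in the WFDC2/CLDN4 cluster, 2.03 CPM (0.973 to 3.73) in endoderm-like cells, 16.1 CPM (12.0 to 21.1) in epicardial-like cells, 33.3 CPM (30.4 to 36.5) in stromal-like cells, 11.8 CPM (4.73 to 24.2) in endothelial-like cells and 1.37 CPM (1.21 to 1.53) in cardiomyocyte-like cells. The WFDC2/CLDN4 cluster was 2.36-fold (2.11 to 2.64) above stromal-like cells and 38.8-fold (21.0 to 81.1) above endoderm-like cells, where only 10 UMIs were counted. A class was counted as sharing a gene when it had at least 10 CPM and the highest class was at most 5 times its level. The WFDC2/CLDN4 cluster was 4.90-fold (3.70 to 6.63) above epicardial-like cells, on 51 UMIs there, so this sharing lay just within the limit. The intervals of epicardial-like and endothelial-like cells overlap.

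In GENCODE 29 on GRCh38, the 10 genes lie on 9 chromosomes and all are protein coding. EPCAM is at chromosome 2, 47345158 to 47387601, CDH1 at chromosome 16, 68737225 to 68835548, and KRT19 at chromosome 17, 41523617 to 41528308. CLDN4 is at chromosome 7, 73799542 to 73832693, RAB25 at chromosome 1, 156061160 to 156070514, and WFDC2 at chromosome 20, 45469706 to 45481532. KRT8 (chromosome 12, 52897187 to 52949954, minus strand) and KRT18 (chromosome 12, 52948871 to 52952901, plus strand) share 1084 bases on opposite strands, and GENCODE 29 lists 50 KRT8 and 67 KRT18 pseudogenes, against 5 for KRT19. Whether counting used the strand is not given in the sources used here, so the split of reads between KRT8, KRT18 and their copies is uncertain. GATA3 (chromosome 10, 8045378 to 8075203) overlaps GATA3-AS1, which had 12.3 CPM in the WFDC2/CLDN4 cluster and 9.64 CPM in stromal-like cells, and MAL2 (chromosome 8, 119165034 to 119245673) overlaps MAL2-AS1, which had 2 UMIs in the WFDC2/CLDN4 cluster.

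The same division appeared in the share of cells with at least 1 UMI of a gene, after every cell was thinned to 3000 UMIs. CLDN4 was found in 35.8% (32.6 to 39.2) of WFDC2/CLDN4 cells, 2.13% (0.785 to 4.57) of endoderm-like cells and 0.197% of cardiomyocyte-like cells. EPCAM was found in 54.2% (50.7 to 57.6) of WFDC2/CLDN4 cells, 56.4% (50.4 to 62.2) of endoderm-like cells, 2.56% (0.947 to 5.50) of epicardial-like cells and 6.05% (5.66 to 6.45) of cardiomyocyte-like cells. The epicardial-like share lies below the cardiomyocyte-like share and is not read as expression, and the part of free RNA in either was not tested. KRT18 was found in 88.0% of WFDC2/CLDN4 cells, 68.8% of endoderm-like cells, 100% of the 234 epicardial-like cells and 58.6% of cardiomyocyte-like cells. Before thinning, the median depth was 13417 UMIs in the WFDC2/CLDN4 cluster, 14018.5 UMIs in endoderm-like cells, 12802 UMIs in epicardial-like cells and 12689.5 UMIs in cardiomyocyte-like cells. MAL2 had a UMI in 16.8% of WFDC2/CLDN4 cells, 13.8% of endoderm-like cells and 0 of 234 epicardial-like cells (exact upper limit 1.56%, for cells with a UMI at this thinned depth), and without thinning in 7 of 241 epicardial-like cells (2.90%). Thinning left out 50 WFDC2/CLDN4 cells, 20 endoderm-like cells, 7 epicardial-like cells and 391 cardiomyocyte-like cells. Without thinning, CLDN4 was found in 64.6% of WFDC2/CLDN4 cells, 7.62% of endoderm-like cells and 0.895% of cardiomyocyte-like cells. EPCAM was then found in 77.0% of WFDC2/CLDN4 cells, 89.1% of endoderm-like cells, 9.54% of epicardial-like cells and 23.1% of cardiomyocyte-like cells, with the epicardial-like share again below the cardiomyocyte-like one.

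**Figure D2:**
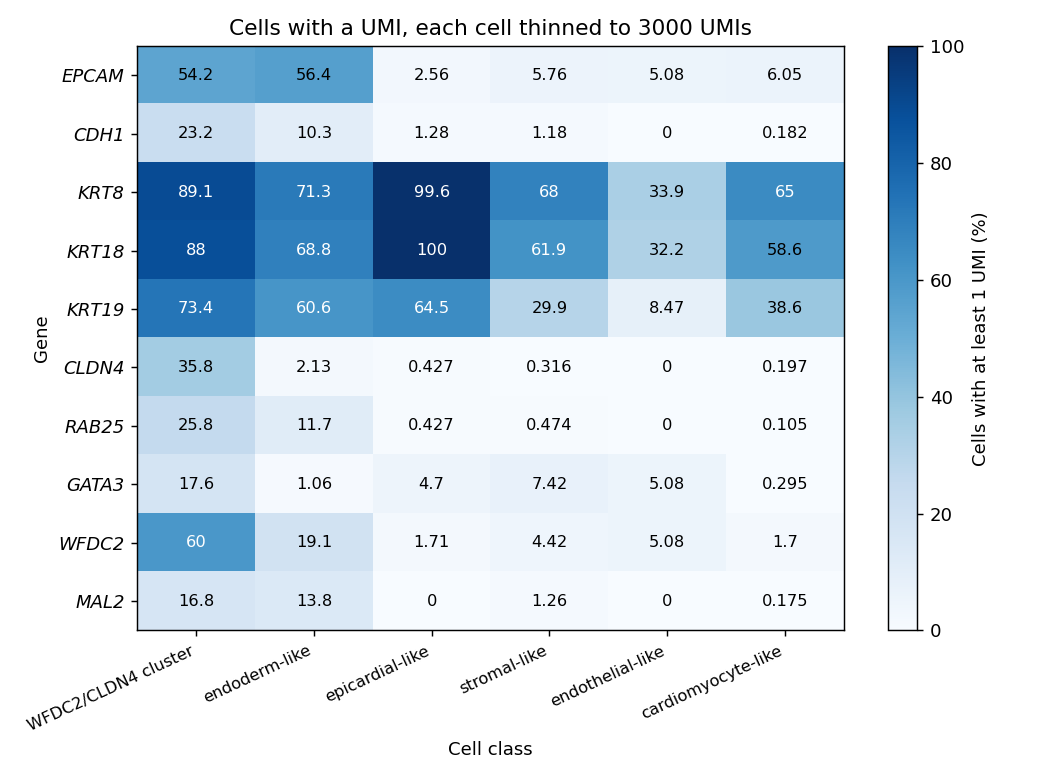
Share of cells (%) with at least 1 UMI of each gene, by class, after thinning to 3000 UMIs per cell. CLDN4 is above 3% in the WFDC2/CLDN4 cluster alone, where it reached 35.8%, whereas KRT18 is found in 100% of epicardial-like and 58.6% of cardiomyocyte-like cells.

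Counted per cell, the 7 members that are not keratins met in single cells of the WFDC2/CLDN4 cluster. At least 3 of the 7 were found in 409 of its 823 thinned cells (49.7%), in 27 of 282 endoderm-like cells (9.57%), in 0 of 234 epicardial-like cells and in 3 of 14249 cardiomyocyte-like cells (0.0211%). None of the 7 was found in 16.5% of WFDC2/CLDN4 cells, 28.0% of endoderm-like cells, 90.2% of epicardial-like cells and 91.6% of cardiomyocyte-like cells. Across the 823 cells, which share 1 library and 1 depth, the log counts of KRT8 and KRT18 had a Pearson r of 0.71 and those of KRT18 and KRT19 of 0.47. For EPCAM and WFDC2 the r was 0.34, and CLDN4 and CDH1 had 0.21. KRT8 and CLDN4 had an r of 0.01. These are sparse counts, and the values below 0.3 are given as description only. The cells also span the sub-clusters described below, among which KRT18 ran from 1183 to 3521 CPM and EPCAM from 29.9 to 439 CPM. The r values do not separate differences between sub-clusters from those between cells within them.

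Cardiomyocyte-like cells held the 3 keratins and EPCAM at 10 CPM or more, as did 74.1% of all measured genes. The level in cardiomyocyte-like cells was set beside what all other classes added to the pool, in CPM of the whole pool, as a gauge of free RNA. It was 8.72% of that amount for RAB25, 10.0% for CLDN4, 11.6% for CDH1 and 14.8% for MAL2. Of 14 genes that mark other classes, 11 lay between 5.52% (SERPINA1) and 15.4% (COL3A1), among them AFP of endoderm-like cells at 6.40%, EMCN of endothelial-like cells at 10.7% and MIR205HG at 11.3%. The other 3, APOA1, COL1A1 and SFRP2, had 49.7%, 57.8% and 66.6%. The 4 junction and traffic members lay within the range of the 11, a group set apart by its values. GATA3 and WFDC2 stood at 23.3% each, above the 11 but within the range of all 14, 5.52% to 66.6%. EPCAM stood at 22.0 CPM against 22.0 CPM, KRT18 at 180.4%, KRT8 at 231% and KRT19 at 403%, all above the 14 genes. In the WFDC2/CLDN4 cluster CDH1, CLDN4, RAB25 and MAL2 summed to 450.0 CPM (438 to 462), in endoderm-like cells to 139 CPM (129 to 150), in epicardial-like cells to 10.1 CPM (6.90 to 14.2), in stromal-like cells to 11.9 CPM (10.1 to 13.9) and in cardiomyocyte-like cells to 2.71 CPM (2.50 to 2.94). The part of free RNA in the lower values was not tested.

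Among the 7 cardiomyocyte-like clusters KRT19 varied most of the 4 genes that were above 10 CPM. It had 897 CPM (877 to 918) in cluster 9, led by MT3, NMB, HLA-DQB1 and ENO2, and 101 CPM (96.4 to 106) in cluster 4, led by LMOD2, CRHBP and IRX1, a ratio of 8.88 (8.42 to 9.36). The median over the 7 clusters was 223 CPM. Cluster 9 therefore exceeded the WFDC2/CLDN4 cluster in KRT19, while its 652 cells had a median of 11795.5 UMIs and 1.48% mitochondrial UMIs. EPCAM, at 30.9 CPM (27.2 to 35.0), and WFDC2, at 13.0 CPM (10.6 to 15.7), were highest in the same cluster. KRT8 ranged only from 339 CPM in cluster 0 to 477 CPM in cluster 1, and KRT18 from 222 CPM in cluster 4 to 474 CPM in the mitotic cluster 3, led by UBE2C and CDK1. CDH1, CLDN4, RAB25, GATA3 and MAL2 were highest in cluster 3, at 1.20 to 2.51 CPM, and that cluster also had the highest median depth, 22418 UMIs per cell. The part of depth in these low values was not tested.

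**Figure D3:**
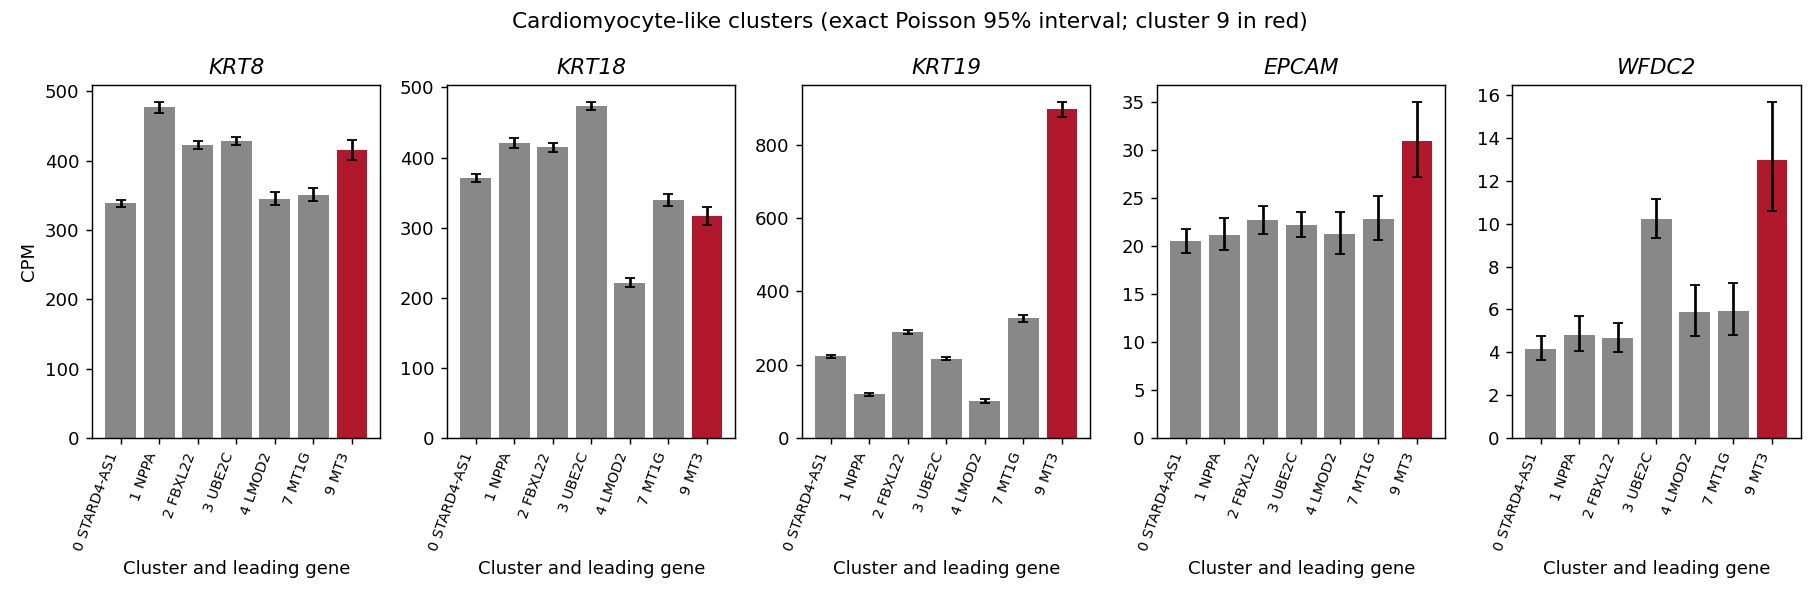
Level in CPM of 5 genes in the 7 cardiomyocyte-like clusters, each named by its number and leading gene, with exact Poisson 95% intervals. KRT19 stood at 897 CPM in cluster 9 and at 101 CPM in cluster 4, whereas KRT8 lay between 339 and 477 CPM.

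The WFDC2/CLDN4 cluster was not uniform, and clustered again without the members it gave 6 sub-clusters. Sub-cluster 0 (252 cells) was led by GABRP, SLN, TGFBI and CRH, sub-cluster 1 (237 cells) by CGA, ALCAM and MACC1, sub-cluster 2 (169 cells) by SOX3, SPARCL1 and DLK1, and sub-cluster 3 (101 cells) by the mitotic genes PLK1 and UBE2C. Sub-cluster 4 (85 cells) was led by CFC1, RGS4, the histone gene HIST1H4C and TCF21, with the histone genes HIST1H1D and HIST1H1B also among its leading genes. Sub-cluster 5 (29 cells) was led by the contractile genes MYL3 and TNNC1. Cardiomyocyte markers summed to 19697 CPM in sub-cluster 5, against 46290.5 CPM in cardiomyocyte-like cells, and its median depth was 18920.0 UMIs. In the other 5 sub-clusters the same markers summed to between 1825 and 2733 CPM. The part of 2-cell droplets in sub-cluster 5 was not tested.

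KRT8, KRT18, KRT19, RAB25 and GATA3 were highest in sub-cluster 0. KRT18 had 3521 CPM (3463 to 3581) in sub-cluster 0, 1949.8 CPM in sub-cluster 1, 1494 CPM in sub-cluster 2, 1196 CPM in sub-cluster 3, 1183 CPM in sub-cluster 4 and 1226 CPM in sub-cluster 5. Sub-cluster 0 also had the highest sums of the amnion and surface ectoderm list, 831 CPM, and of the stromal list, 2520 CPM, against 2459 CPM in stromal-like cells. CLDN4 had 137 CPM (126 to 149) in sub-cluster 0, 339 CPM (317 to 362) in sub-cluster 1, 221 CPM (202 to 242) in sub-cluster 2, 107 CPM in sub-cluster 3, 4.04 CPM in sub-cluster 4 and 266 CPM in sub-cluster 5. CDH1 was likewise highest in sub-cluster 1, at 183 CPM (167 to 200), against 106 CPM in sub-cluster 0 and 72.3 CPM in sub-cluster 2. MAL2 had 48.6 CPM in sub-cluster 0, 82.5 CPM in sub-cluster 1 and 85.3 CPM in sub-cluster 2. The foregut list, most of it SOX2, summed to 1.79 CPM in sub-cluster 0, 198 CPM in sub-cluster 1, 182 CPM in sub-cluster 2, 95.8 CPM in sub-cluster 3, 63.8 CPM in sub-cluster 4 and 178 CPM in sub-cluster 5. Its members NKX2-1 and PAX8 had 0 UMIs in sub-cluster 1.

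In sub-cluster 4 CDH1, CLDN4, RAB25 and MAL2 were each below 10 CPM, while KRT8 and GATA3 were not. It had 29.9 CPM of EPCAM (21.1 to 41.2), 5.66 CPM of CDH1 and 6.46 CPM of RAB25, beside 974 CPM of KRT8 and 60.6 CPM of GATA3 (47.7 to 76.0). Other junction genes lay on both sides of 10 CPM there. TJP1, which encodes a scaffold of the tight junction, was at 116 CPM and OCLN, which encodes occludin, at 16.2 CPM. In cardiomyocyte-like cells these 2 genes had 124 CPM and 5.65 CPM. CLDN7 was at 7.27 CPM, CLDN3 at 2.42 CPM and CGN, which encodes cingulin, at 1.62 CPM in sub-cluster 4. Its epithelial markers outside the members summed to 98.6 CPM and its stromal markers to 927 CPM. At a coarser resolution of 0.3 no sub-cluster had CLDN4 below 10 CPM. The lowest there had 71.4 CPM, in 202 cells led by the mitotic genes UBE2C and PLK1. Without sub-clusters 4 and 5, a setting chosen after the data were seen, the WFDC2/CLDN4 cluster had 354 CPM of EPCAM, 201 CPM of CLDN4, 112 CPM of CDH1 and 559 CPM of WFDC2, and all 10 members were still higher than in cardiomyocyte-like cells.

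**Figure D4:**
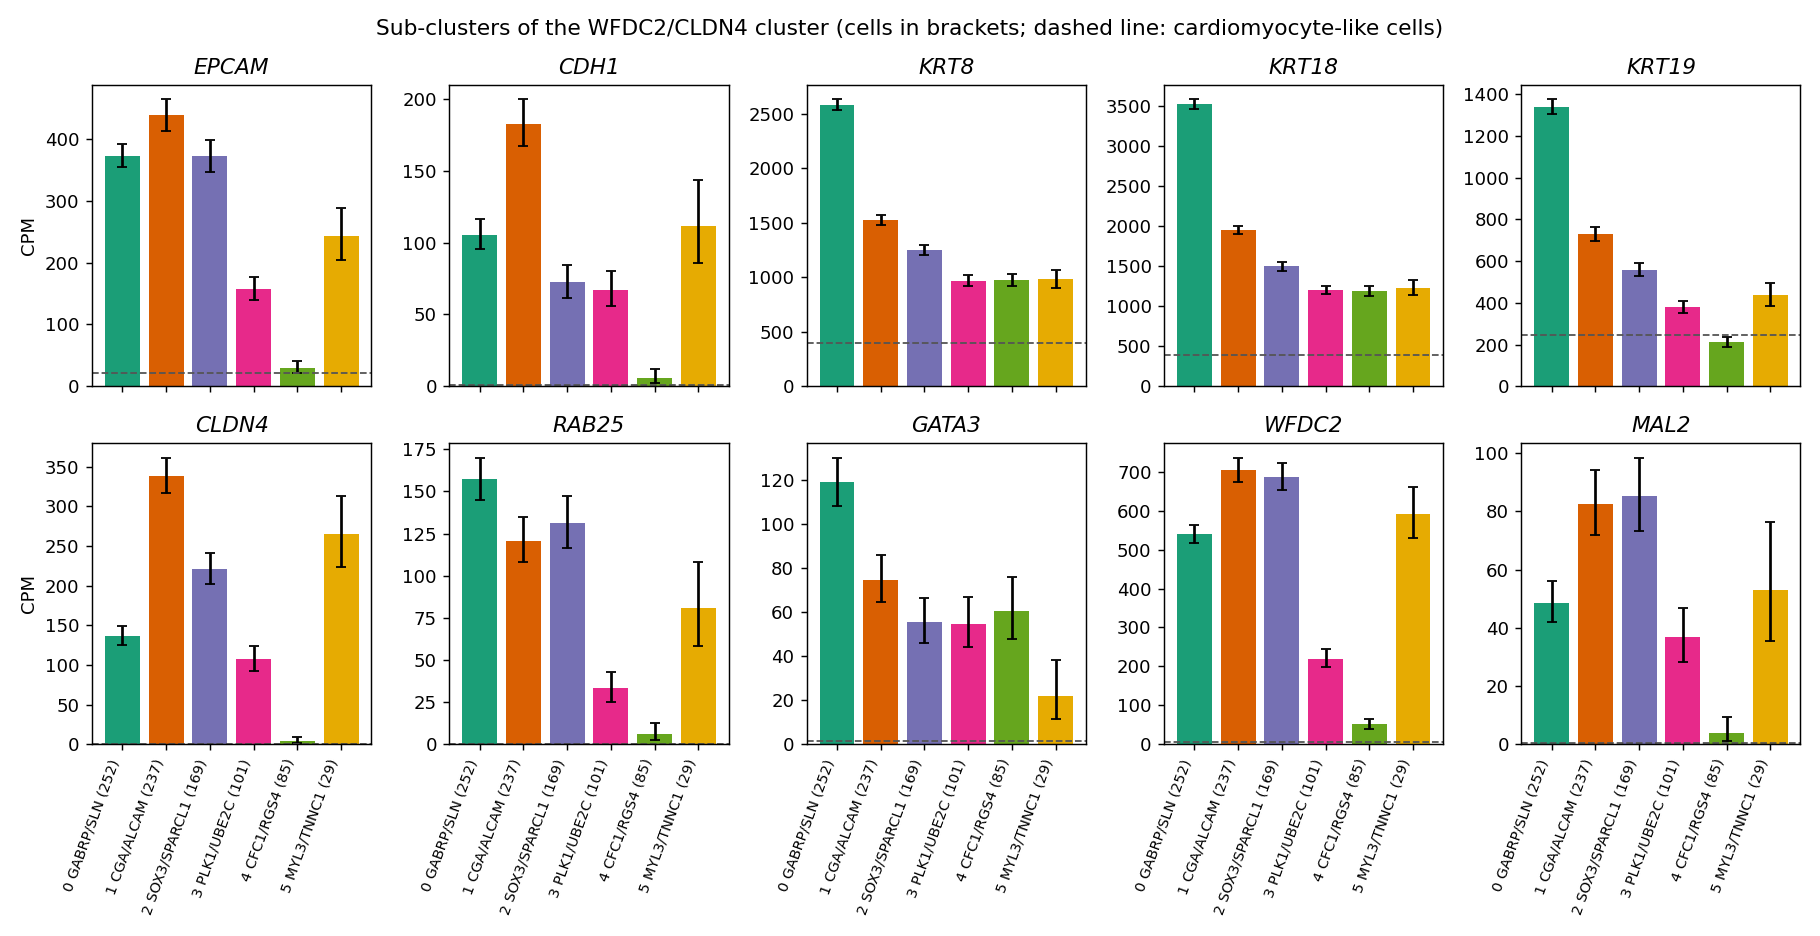
Level in CPM of each gene in 6 sub-clusters of the WFDC2/CLDN4 cluster, with exact Poisson 95% intervals. The dashed line is the level in cardiomyocyte-like cells. The keratins peak in sub-cluster 0, CLDN4 and CDH1 in sub-cluster 1, and sub-cluster 4 stands at 4.04 CPM of CLDN4 with 60.6 CPM of GATA3.

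The 13 hashtags, treated as unassigned samples, differed widely in how many WFDC2/CLDN4 cells they held. A single hashtag could be read for 49.3% of cells. Of these, leaving out the low-depth cluster, the share was 40.7% (35.6 to 46.0) in Hashtag1 and 29.9% (26.4 to 33.5) in Hashtag2. In the other 11 it lay between 0.351% (Hashtag3) and 4.20% (Hashtag7), and the median of the 13 was 1.32%. Endoderm-like cells were most frequent in Hashtag12, at 9.65%, and epicardial-like cells in Hashtag8, at 3.31%. Stromal-like cells, with which the cluster shared GATA3, were most frequent in Hashtag1, at 28.0%, the hashtag where the WFDC2/CLDN4 cluster was also most frequent. Sub-clusters 1 and 2 came mainly from Hashtag1 and Hashtag2, with 207 of 235 hashtagged cells, whereas sub-cluster 0 had 27 of 87 there and 33 in Hashtag7. Within the WFDC2/CLDN4 cluster, KRT18 was 1177 CPM in Hashtag1, 1591 CPM in Hashtag2 and 3799 CPM in Hashtag7, and CLDN4 was 148 CPM, 249 CPM and 140.5 CPM in the same order. The other hashtags had fewer than 20 such cells each.

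The summed level of CDH1, CLDN4, RAB25 and MAL2 over all cells of a hashtag ran from 4.71 CPM (Hashtag3) through a median of 7.51 CPM to 187 CPM (Hashtag2). In cardiomyocyte-like cells it ran from 0.646 CPM (Hashtag10) through 1.92 CPM to 5.12 CPM (Hashtag1), on 5 and 6 UMIs at the ends. KRT19 in cardiomyocyte-like cells ran from 76.8 CPM (Hashtag1) through 226 CPM to 362 CPM (Hashtag5), the widest range of the 3 keratins. KRT8 ran from 341 through 421 to 465 CPM, and KRT18 from 272 through 370.4 to 497 CPM. The share of cluster 9 among cardiomyocyte-like cells was 0% in Hashtag1 and 14.9% in Hashtag5, and without that cluster KRT19 still ran from 76.8 through 188 to 315 CPM. In the 5 hashtags with at least 20 cells of cluster 9, its KRT19 level lay between 690.1 and 1031 CPM.

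**Figure D5:**
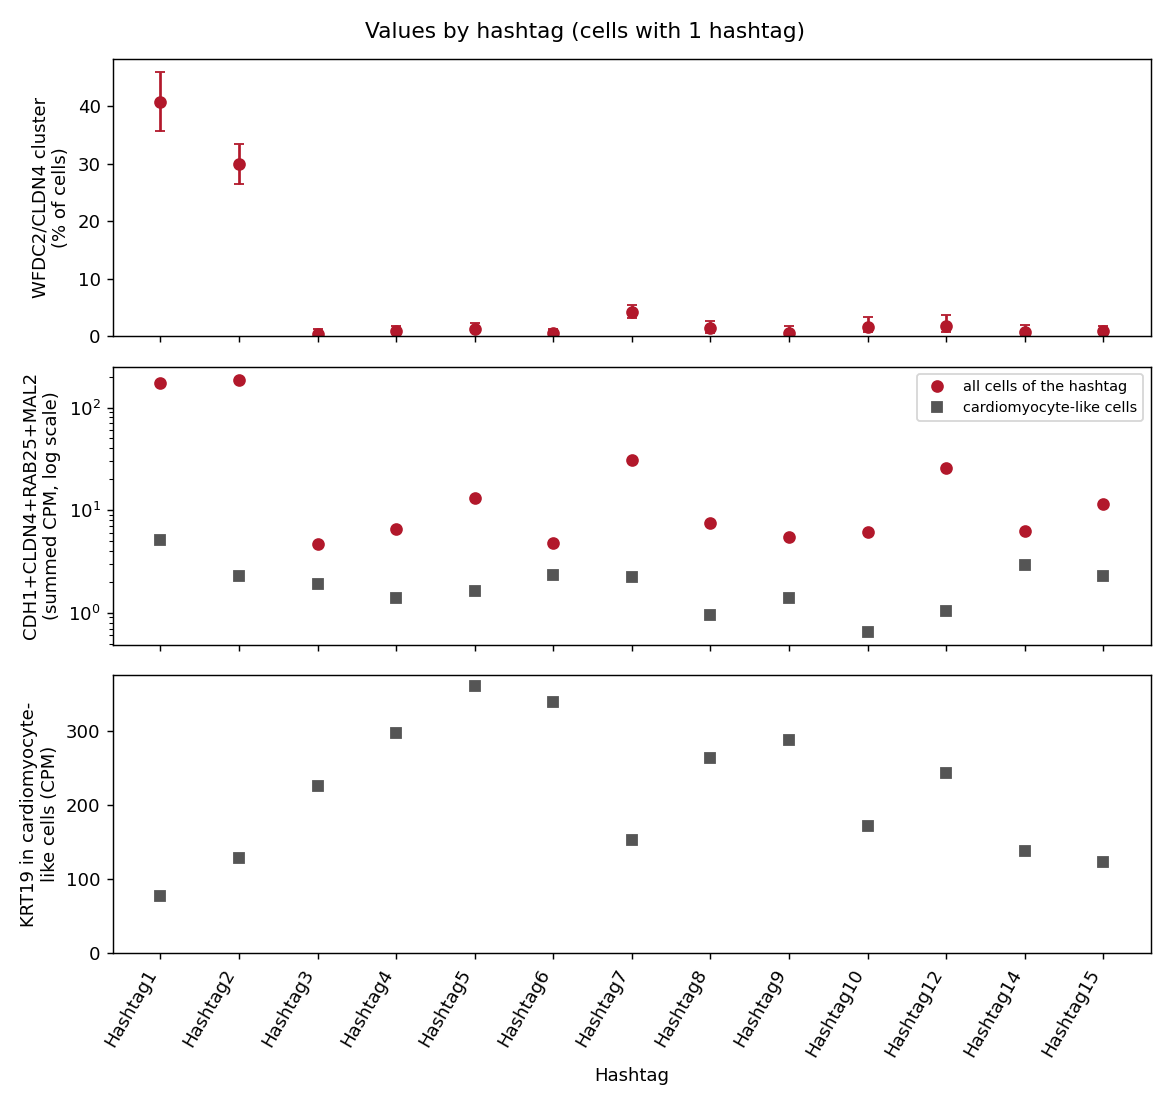
Values for the 13 hashtags: the share of cells in the WFDC2/CLDN4 cluster with exact 95% intervals (top), the summed CPM of CDH1, CLDN4, RAB25 and MAL2 in all cells and in cardiomyocyte-like cells on a log axis (middle), and KRT19 in cardiomyocyte-like cells (bottom). Hashtag1 and Hashtag2 stand apart with 40.7% and 29.9%, and KRT19 in cardiomyocyte-like cells is lowest in Hashtag1, at 76.8 CPM.

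Other genes of the epithelial junction were also high in the classes that held CDH1 and RAB25. Of 14 measured tight junction genes (list of 23), 12 were higher in the WFDC2/CLDN4 cluster than in cardiomyocyte-like cells and 0 were lower. Over all measured genes the shares were 28.3% and 18.3%. The same counts held in endoderm-like cells, beside shares of 26.6% and 20.2%. Epicardial-like cells had 2 higher and 2 lower of 7, near the shares of 22.4% and 21.1%. CLDN3, CLDN7, CLDN10, CGN, OCLN, MARVELD2 and MARVELD3 were below 10 CPM in cardiomyocyte-like cells. In the first comparison they were thus measured only through the WFDC2/CLDN4 cluster. The median log2 ratio of the list was 1.83 in the WFDC2/CLDN4 cluster, against 0.17 over all measured genes. CLDN7 had 195 CPM in the WFDC2/CLDN4 cluster, 41.0 CPM in endoderm-like cells and 1.34 CPM in cardiomyocyte-like cells, and CLDN3 had 69.5 CPM, 30.7 CPM and 3.84 CPM in the same classes. CGN, which encodes cingulin of the junction plaque, was at 18.2 CPM and 17.9 CPM in the first and second of these classes, and at 0.995 CPM in cardiomyocyte-like cells. CLDN10, another claudin, had 18.4 CPM in the WFDC2/CLDN4 cluster and 1.01 CPM in endoderm-like cells.

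Of 19 listed regulators of epithelial identity, 10 of 10 measured were higher in the WFDC2/CLDN4 cluster and 6 of 6 in endoderm-like cells. Over all measured genes the shares were 28.3% and 26.6%. None of the 19 reached 10 CPM in cardiomyocyte-like cells, where the highest was ELF3 at 8.28 CPM. A regulator was thus measured only where the other class reached 10 CPM. The minimum level therefore nearly fixed both counts, and they are not read against the shares. GRHL2, a grainyhead factor, had 26.5 CPM in the WFDC2/CLDN4 cluster, 2.03 CPM in endoderm-like cells and 0.143 CPM in cardiomyocyte-like cells. TFAP2A had 89.0 CPM, TFAP2B 20.1 CPM and TFAP2C 11.7 CPM in the WFDC2/CLDN4 cluster, and the 3 AP-2 factors had 0.444 CPM, 0.0972 CPM and 0.0648 CPM in cardiomyocyte-like cells. Protease control genes were higher for 4 of 4, with SPINT1, a protease inhibitor of the cell surface, at 78.5 CPM and the membrane protease PRSS8 at 57.3 CPM, against 2.41 CPM and 1.99 CPM in cardiomyocyte-like cells. Apical traffic genes were higher for 7 of 8, among them AP1M2, an epithelial clathrin adaptor subunit, at 42.4 CPM against 0.213 CPM, where 28.3% of all measured genes were higher. Polarity genes were higher for 3 of 8, near that share, among them CRB3 at 11.9 CPM against 0.319 CPM.

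Few keratins beyond the members reached the minimum level, while most desmosome genes did. Of the other listed keratins 2 were measured. KRT7, a simple keratin, was higher, at 25.4 CPM in the WFDC2/CLDN4 cluster and 0.134 CPM in cardiomyocyte-like cells. KRT10, a keratin of stratified epidermis, was within the limit, at 151 CPM against 128 CPM. In this comparison 28.3% of all measured genes were higher and 18.3% lower. Desmosome genes were higher for 5 and lower for 1 of 8 measured, with DSP at 406 CPM against 305 CPM in cardiomyocyte-like cells, a ratio of 1.33 within the limit, DSC2 at 116 CPM against 31.6 CPM in cardiomyocyte-like cells, and PKP2, which cardiomyocytes use in the intercalated disc, at 115 CPM against 203 CPM. Among 9 measured cadherin and adherens junction genes 6 were higher and 1 lower. CDH2, the cadherin of cardiomyocytes, was the lower one, at 130 CPM in the WFDC2/CLDN4 cluster and 383 CPM in cardiomyocyte-like cells, while CDH6 was at 35.4 CPM against 0.815 CPM. Mesenchymal genes were higher for 5 and lower for 1 of 9, beside the shares of 28.3% and 18.3% over all measured genes. COL3A1 had 398 CPM in the WFDC2/CLDN4 cluster and 14.2 CPM in cardiomyocyte-like cells, and the repressor ZEB1 had 12.2 CPM and 35.2 CPM. Both differed between sub-clusters of the WFDC2/CLDN4 cluster. COL3A1 ran from 40.9 CPM in sub-cluster 1 to 844 CPM in sub-cluster 0. ZEB1 ran from 3.33 CPM in sub-cluster 0 to 41.3 CPM in sub-cluster 3.

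Likeness of pattern was measured as Pearson's r of log2(CPM + 5) over the 13 clusters, among 5393 genes, and the points share 1 library. In the 7 cardiomyocyte-like clusters CDH1, CLDN4, RAB25 and MAL2 were at 2.14 CPM or less, below the 5 that is added. Their r is thus set mainly by the few clusters where they were high. The gene most like CDH1 was RAB25 (r = 0.99), and the one most like CLDN4 was MIR205HG (0.99), a noncoding host gene, followed by TFAP2A (0.97). MAL2 was most like SPP1 (0.99) and RAB25 (0.98), and EPCAM most like CLDN3 (0.97). KRT8 and KRT18 were each other's nearest (0.97), followed by PDPN, a surface protein of mesothelium, at 0.97 and 0.96. GATA3 was most like LUM (0.97), which encodes a proteoglycan of the matrix, and WFDC2 most like RAB25 (0.97). KRT19 had no gene closer than IMPDH2, at 0.84.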

How the data were processed

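The deposited data are 1 matrix of unnormalised counts (UMIs) of 36601 genes and 13 hashtags in 24038 barcodes. The matrix header names Cell Ranger 4.0.0, and the submitters' processing notes name hg38. Alignment settings, strand and annotation release were not given in the sources used here. All barcodes are distinct. Barcodes under 500 genes or 1000 UMIs, or over 25% mitochondrial UMIs, were removed (2415), and Scrublet in scanpy 1.11.5 removed 2508 doublets (11.6%, threshold 0.380, expected 17.3%).

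The 2000 most variable genes without members, list, mitochondrial and ribosomal genes gave 30 components, 15 neighbours and leidenalg 0.10.2 clusters (resolution 0.6, seed 0). Classes were named from marker lists. UMIs were summed per class and scaled to CPM, with exact Poisson, conditional binomial and Clopper-Pearson intervals (scipy 1.17.1, Python 3.11.15). A side at 0 was set at 3 counts. Clusters are no replicates, so no test was run. The ratio calls were first tested on simulated counts.

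A cell was given to a hashtag holding at least 70% of at least 20 hashtag UMIs. The members and lists, the naming rule for classes and the alternatives were chosen with earlier results of these data known. Named genes are the members, up to 4 per list with the largest and 2 with the smallest ratios past 1.5, and the 3 genes most like each member (at least 50 CPM in 1 cluster). PALS1 of the polarity list had no match in the matrix. GENCODE 29 held 34616 of the gene identifiers.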

Additional observations from a re-analysis of the deposited data

How the results depend on the processing

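All 10 members stayed higher in the WFDC2/CLDN4 cluster than in cardiomyocyte-like cells, and 4 members stayed at 10 CPM or more in cardiomyocyte-like cells, under every alternative run. The count of members higher in endothelial-like cells was 1 with doublets kept, against 0. That of stromal-like cells was 2 under scaling by the trimmed mean of M values and 2 at a ratio of 3, against 4. Without a minimum level, 8 members were higher in epicardial-like cells, 8 in stromal-like cells and 6 in endothelial-like cells. Private members were 5 at a multiple of 2 and 1 at a multiple of 10, against 2. The scaling lowered every log2 ratio by 0.36 in the WFDC2/CLDN4 cluster, 0.31 in endoderm-like, 0.18 in epicardial-like, 0.39 in stromal-like and 0.18 in endothelial-like cells. Of 1350 ratios under alternatives 1211 moved by less than counting error and 139 by more, and no called one changed sign. With only cells of 1 hashtag, KRT18 in endothelial-like cells, not called, had a log2 ratio of -1.31, against 0.26. WFDC2 in epicardial-like cells, at 24 UMIs, had a log2 ratio of -0.70 without a filter on cells, against 0.25. The cause was not tested. With each hashtag left out in turn, no count moved past 1.5 times, and the ratio that moved by more than that was GATA3 in endothelial-like cells without Hashtag2 (log2 2.39, against 3.11, on 7 UMIs). Without the cells of Hashtag1 and Hashtag2, a setting added later, KRT18 in the WFDC2/CLDN4 cluster had a log2 ratio of 2.72, against 2.45. Shares of cells fell with thinning to 2000 UMIs, as that alternative is built to do. The endothelial-like class, with 61 cells, limits every statement about it. No paired analysis was possible because the pool has no replicate numbers and no test was run.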

Other observations

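Genes other than the members set the sub-clusters of the WFDC2/CLDN4 cluster apart, and they were named after their values were seen. Sub-cluster 0 held 372 CPM of GABRP, 120.3 CPM of CRH, which encodes corticotropin-releasing hormone, and 86.2 CPM of VTCN1, each at 3.24 CPM or less in sub-clusters 1 and 2. It also held 335 CPM of DCN and 556 CPM of LUM, both matrix proteoglycans. Sub-cluster 1 held 121 CPM of CGA, the alpha subunit of glycoprotein hormones, and 54.0 CPM of the morphogen SHH. Of the 8 genes of the trophoblast list, which CGA belongs to, 2 were at 1 CPM or more in the whole cluster and CGB3, CGB5 and PSG3 were at 0, while XAGE2 had 3.58 CPM in sub-cluster 0. PAX1 had 63.3 CPM in sub-cluster 1, 53.8 CPM in sub-cluster 2 and 67.8 CPM in sub-cluster 5, and TFAP2A had 209 CPM in sub-cluster 0 and 31.9 CPM in sub-cluster 1. The low-depth cluster held 15.1 CPM of EPCAM, 201 CPM of KRT8 and 2.15 CPM of CLDN4.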
